A study of Mus musculus with 6 samples.

Results

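The genes Lrrc2, Sec22c, Antxr2 and Hsd17b11 were followed through retinal RNA of mice that lack photoreceptor cadherin. They were chosen by their measured log2 difference between the groups, because probe sets of each read higher in the mutant arrays of this same comparison, so the difference between mutant and wild type describes the choice and is given with no test. All probe sets whose single gene symbol is one of the 4 names were taken, which gave 8 of 45037 probe sets, for 4 of 18193 named genes. The study measured retinas of mice about 4 weeks old on 6 single-colour Affymetrix arrays, 3 of the prCAD -/- mutant and 3 of wild type 129 mice, with the pooled retinas of 3 mice on each array. prCAD is the product of the gene Cdhr1. The spread between arrays is therefore one between pools, and in a bulk tissue fewer cells of a type and less RNA per cell cannot be told apart. The labels used here name no strain for the mutant, so a difference that follows the Cdhr1 mutation and one that follows an allele of another strain cannot be told apart by the labels.

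The 4 genes belong to separate parts of cell biology. Lrrc2 encodes a protein built of leucine-rich repeats. Sec22c belongs to the SEC22 family of vesicle proteins that act between the endoplasmic reticulum and the Golgi, and unlike its relative Sec22b it has no SNARE motif. Antxr2, first named as a capillary morphogenesis gene, encodes a membrane receptor for matrix proteins such as type VI and type IV collagen and laminin, and it is a port of entry for anthrax toxin. Hsd17b11 encodes a short-chain dehydrogenase of the hydroxysteroid family that sits on lipid droplets, and an older name for it, retSDR2, marks it as a retinal member of that enzyme family.

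The 4 genes were grouped as consistent risers from these same arrays, and 1 of them, Hsd17b11, did not rise at each of its probe sets. Every probe set of Lrrc2, Sec22c and Antxr2 had all mutant arrays above all wild type arrays, as did 1 of the 3 of Hsd17b11. Of the other two of Hsd17b11, one had a higher mean in the mutant and one a lower mean, and in both the groups overlapped. In 6 of 8 probe sets every mutant array lay above every wild type array, a pattern that 4.73% of all probe sets showed. In 5 of 8 the groups were apart and the mean difference was at least 1 on the log2 scale, against 0.0977% of all probe sets. Since the same contrast chose the genes, nothing is read from these counts, and no call on the 8 probe sets is given. Over all probe sets, 0.0111% passed an adjusted p of 0.05 by limma on group alone and 0.0333% with the replicate number as a block.

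The promoters of the 4 genes are shown because the genes were grouped for moving in the same direction. Each run is the 250 bases before the transcript start in the RefSeq table for GRCm38.p6, read in the direction of transcription, and all 4 genes had an entry. Capitals mark matches on either strand to any of 7 motifs: the CCAAT box, the GC box with the letters GGGCGG, the TATA box as TATAAA, the CRX site as TAATCC, the STAT site as TTCNNNGAA, the E box as CACGTG and the AP-1 site as TGANTCA.
Lrrc2, chr9:110951295-110951544, strand +: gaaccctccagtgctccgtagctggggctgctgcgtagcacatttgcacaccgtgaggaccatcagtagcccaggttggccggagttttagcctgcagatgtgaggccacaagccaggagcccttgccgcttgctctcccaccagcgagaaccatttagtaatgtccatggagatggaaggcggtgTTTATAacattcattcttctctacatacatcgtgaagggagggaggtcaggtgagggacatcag
Sec22c, chr9:121705030-121705279, strand -: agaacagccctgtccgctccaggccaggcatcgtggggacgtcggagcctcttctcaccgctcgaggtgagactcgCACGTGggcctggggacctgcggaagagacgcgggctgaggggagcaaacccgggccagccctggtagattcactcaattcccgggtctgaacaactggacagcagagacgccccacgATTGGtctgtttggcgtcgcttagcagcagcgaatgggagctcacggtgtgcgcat
Antxr2, chr5:98031018-98031267, strand -: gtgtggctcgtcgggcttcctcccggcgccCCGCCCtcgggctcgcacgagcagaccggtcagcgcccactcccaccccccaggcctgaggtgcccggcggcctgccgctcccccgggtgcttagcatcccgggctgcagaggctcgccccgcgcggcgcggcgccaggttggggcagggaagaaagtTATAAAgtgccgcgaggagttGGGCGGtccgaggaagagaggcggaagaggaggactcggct
Hsd17b11, chr5:104021797-104022046, strand -: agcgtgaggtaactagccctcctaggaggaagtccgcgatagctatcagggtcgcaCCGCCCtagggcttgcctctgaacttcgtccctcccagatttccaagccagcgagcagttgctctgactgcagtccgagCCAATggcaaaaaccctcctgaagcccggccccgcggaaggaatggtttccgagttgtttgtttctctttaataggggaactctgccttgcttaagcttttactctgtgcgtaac
No motif was common to all 4 runs. A TATAAA match, in the orientation TTTATA, lay 64 to 59 bases before the start of Lrrc2, and another lay 62 to 57 bases before that of Antxr2, while 13.0% of 27025 promoters of that length held one. GGGCGG, the GC box, was found in Antxr2 and Hsd17b11 and in 32.9% of all promoters. CCAAT was found in Sec22c and Hsd17b11 and in 34.5% of all, and CACGTG, the E box, in Sec22c and in 6.05% of all. The letters TAATCC, the site preferred by the photoreceptor factor CRX, were in none of the 4 windows and in 6.38% of all promoters. The same held for TTCNNNGAA, the site of STAT factors (7.18% of all), and TGANTCA, the AP-1 site (6.87%). Matches of these motifs did not overlap one another in the 4 runs. The share of G and C was 54.8% in Lrrc2, 63.6% in Sec22c, 72.8% in Antxr2 and 54.8% in Hsd17b11, beside a median of 52.0% over all promoters.

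Lrrc2 had the largest differences of the 4 genes, and both of its probe sets read higher in mutant retina. Probe set 1453628_s_at, the brighter, read 5.92, 6.10 and 5.95 on the log2 scale in wild type replicates 1 to 3 and 7.45, 7.59 and 7.72 in mutant replicates 1 to 3. The mutant arrays lay well clear of the wild type arrays, whose highest value was 1.36 below the lowest mutant value. The group means were 5.99 ± 0.09 and 7.59 ± 0.13 (SD, n = 3 each), a difference of 1.60 (SE 0.11) or 3.03-fold. Within same-numbered arrays the differences were 1.53, 1.50 and 1.77. Sorted from the highest among all 45037 probe sets, this difference stood at place 12.

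The other Lrrc2 probe set, 1427388_at, read 4.81, 5.19 and 5.35 in wild type and 7.40, 6.67 and 7.09 in mutant retina. Again no array of one group reached into the other, and the gap between the groups was 1.33. The means of 5.12 ± 0.27 and 7.06 ± 0.37 (SD, n = 3 each) differ by 1.94 (SE 0.21), or 3.83-fold, at place 9 of all probe sets. Its differences within same-numbered arrays spread more widely, from 1.48 in replicate 2 to 2.59 in replicate 1. Replicate 1 supplied both the lowest wild type and the highest mutant value of this probe set. The brighter probe set is of the type whose probes can match more than 1 transcript, while the dimmer one is not.

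**Figure D1:**
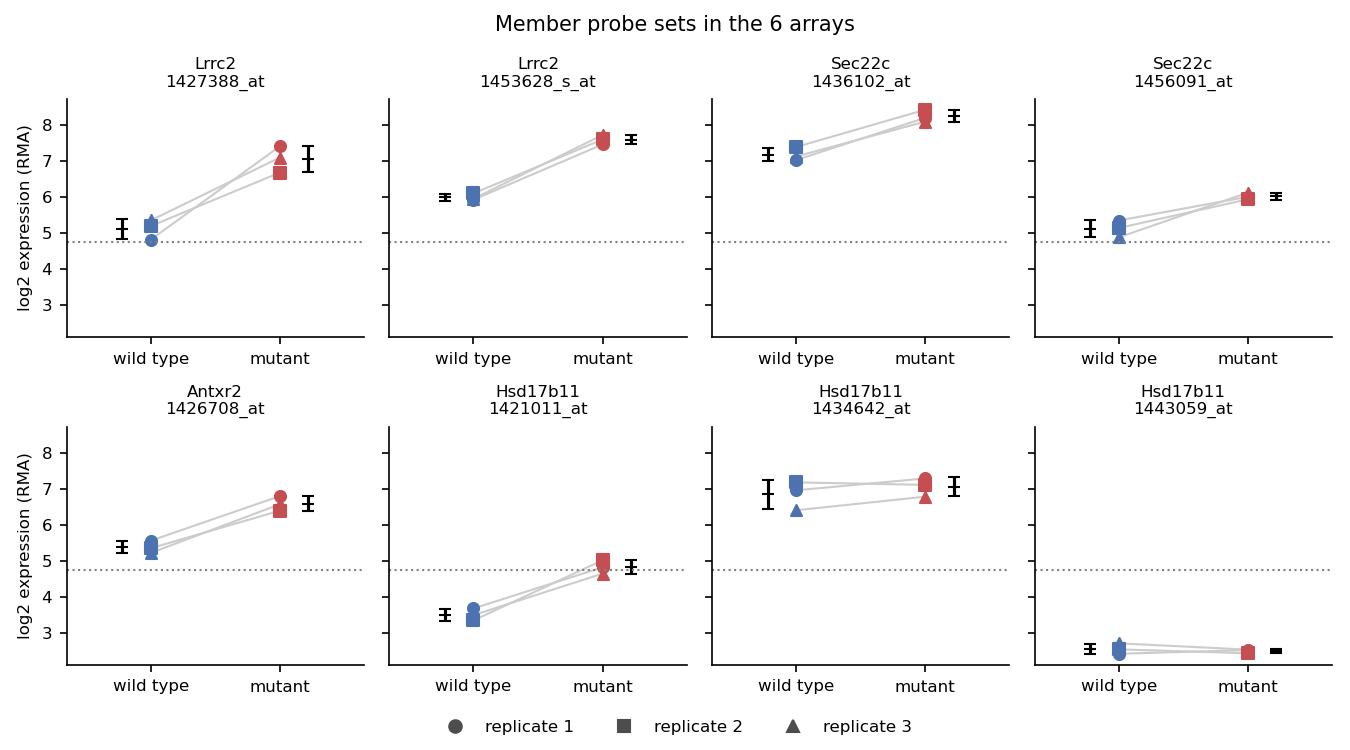
Log2 expression (RMA, vertical axis) of each of the 8 probe sets in the 3 wild type (blue) and 3 mutant (red) arrays, with grey lines joining same-numbered replicates, black bars for the mean ± SD and a dotted line at the overall median of 4.76. The groups are apart in both Lrrc2 panels, both Sec22c panels, the Antxr2 panel and the Hsd17b11 panel 1421011_at, and they overlap in the remaining Hsd17b11 panels.

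Sec22c was about double at one probe set and slightly below that at the other. Probe set 1436102_at read 7.02, 7.38 and 7.12 in wild type and 8.19, 8.42 and 8.09 in mutant replicates 1 to 3. Replicate 2 was the highest array in both groups, and the groups did not overlap. The means were 7.18 ± 0.19 and 8.23 ± 0.17 (SD, n = 3 each), which differ by 1.06 (SE 0.13), or 2.08-fold. The differences within same-numbered arrays were the most even of the 4 genes at 1.17, 1.03 and 0.97, and the SE fell from 0.13 to 0.09 when the replicate number was a block.

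Probe set 1456091_at of Sec22c read 5.35, 5.14 and 4.88 in wild type and 6.004, 5.93 and 6.12 in mutant arrays. Here the wild type arrays spread over 0.47 and the mutant arrays over 0.18, and the groups stayed 0.59 apart. The difference was 0.90 (SE 0.14), or 1.86-fold, and within same-numbered arrays it ran from 0.66 in replicate 1 to 1.24 in replicate 3. The order of the replicates was thus not that of the first probe set, where replicate 1 had the highest difference. The SEC22 relatives, which were not chosen by their values, are given for their kinship. Sec22a differed by -0.12 (SE 0.10) and 0.10 (SE 0.16) at its probe sets, and Sec22b by -0.05 (SE 0.11) and -0.03 (SE 0.15), and in each the groups overlapped.

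Antxr2 had 1 probe set, so there is no second reading of its transcript. Probe set 1426708_at read 5.56, 5.35 and 5.22 in wild type and 6.79, 6.39 and 6.57 in mutant replicates 1 to 3. The lowest mutant array, replicate 2, lay 0.83 above the highest wild type array, replicate 1. The means were 5.37 ± 0.17 and 6.58 ± 0.20 (SD, n = 3 each), and the difference was 1.21 (SE 0.14), or 2.31-fold, at place 36 of all probe sets. Within same-numbered arrays it was 1.24, 1.04 and 1.35. Antxr1, the other anthrax toxin receptor gene, differed by 0.03 (SE 0.13) and 0.09 (SE 0.13) at its probe sets, with overlapping groups in both.

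Hsd17b11 gave 3 unlike readings. Probe set 1421011_at, designed on the RefSeq transcript of the gene, read 3.68, 3.34 and 3.49 in wild type and 4.82, 5.01 and 4.64 in mutant arrays. The groups were 0.97 apart, and the means of 3.50 ± 0.17 and 4.82 ± 0.19 (SD, n = 3 each) differ by 1.32 (SE 0.13), or 2.50-fold. All wild type arrays lay below the overall median of 4.76, as did mutant replicate 3, so background limits this fold. The differences within same-numbered arrays were 1.14, 1.67 and 1.15.

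The brightest Hsd17b11 probe set, 1434642_at, did not separate the groups. It read 6.95, 7.17 and 6.40 in wild type and 7.28, 7.10 and 6.78 in mutant arrays, and wild type replicate 2 lay above mutant replicates 2 and 3. Its difference was 0.21 (SE 0.22), within the spread between arrays, and it was 0.33, -0.07 and 0.38 within same-numbered arrays. Wild type replicate 3 was its lowest array, and without that array the difference was -0.01. Probe set 1443059_at stayed between 2.42 and 2.71 in all 6 arrays, far below the overall median, with a difference of -0.06 (SE 0.10). These 2 probe sets were designed on expressed sequence tags, and which parts of the transcript each of the 3 covers was not analysed here. Hsd17b13, the neighbouring relative of Hsd17b11, differed by -0.03 (SE 0.10) and 0.08 (SE 0.12) at its probe sets.

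**Figure D2:**
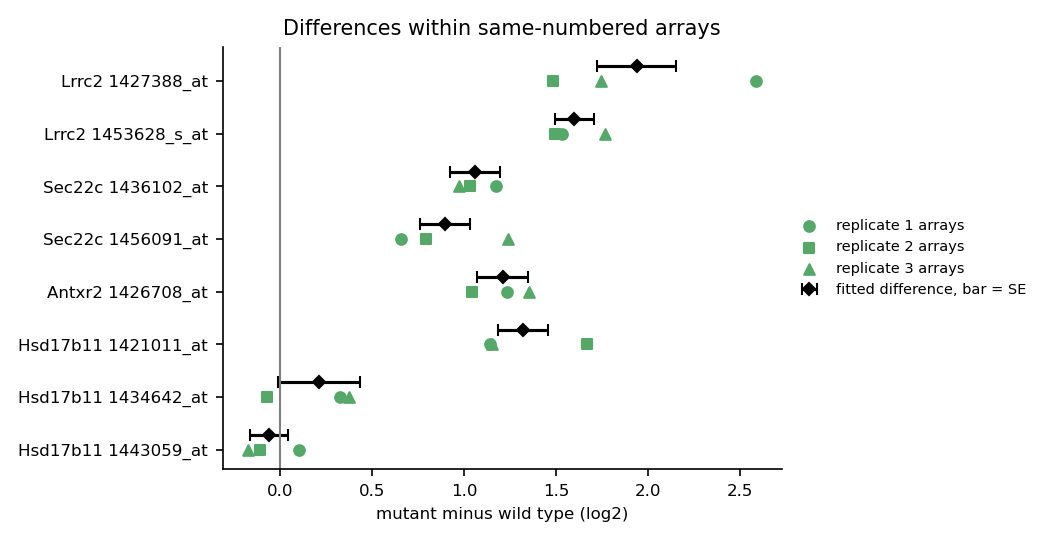
Mutant minus wild type on the log2 scale (horizontal axis) for each of the 8 probe sets, with 1 green symbol for each same-numbered pair of arrays and a black diamond for the fitted difference with its SE. The 18 within-replicate differences of the upper 6 probe sets all lie above 0, between 0.66 and 2.59, and those of the lower 2 fall on both sides of 0.

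Within the groups, probe sets of the same gene did not rank the arrays alike. Deviations of each array from its group mean were compared over the 6 arrays, which share hybridisation and normalization. The correlation was -0.17 between the probe sets of Lrrc2 and -0.37 between those of Sec22c. Among the Hsd17b11 probe sets it was 0.13, -0.54 and -0.65. With 6 points and 2 fitted means these values are descriptions. Between genes the largest was 0.77, for Lrrc2 1427388_at and the dim Hsd17b11 1443059_at.

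The genes that flank the 4 on their chromosomes were read next, to set each gene beside its neighbours. Lrrc2 and Sec22c lie on chromosome 9 and Antxr2 and Hsd17b11 on chromosome 5, while Cdhr1 lies on chromosome 14. For each gene the 20 measured genes on either side in GRCm38.p6 order were taken at their brightest probe sets. A gene was said to differ when its means were at least 0.5 apart on the log2 scale and its groups did not overlap, as 0.764% of all 18193 genes did.

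Around Lrrc2, 0 of 40 flanking genes differed. Their median difference was 0.01, and they ran from -0.28 for Klhl18 to 0.36 for Dclk3, a kinase gene. The nearest genes on one side were Tdgf1 (a difference of 0.06), Als2cl (0.15) and Tmie (0.06), and on the other Rtp3 (-0.19), Ltf, which encodes lactoferrin (0.08), and the chemokine receptor-like gene Ccrl2 (-0.12). By limma 0 of the 40 passed an adjusted p of 0.05 and 4 had an unadjusted p below 0.05, which 3.42% of all genes had. Lrrc2 was chosen for its difference and its neighbours were not, so the distance between them is not a result.

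Around Sec22c 0 of 40 flanking genes differed, and they held values from -0.18 to 0.22. Vipr1, a receptor of vasoactive intestinal peptide, lay next to it on one side (0.18), followed by Lyzl4 (0.06) and the neuropeptide gene Cck (0.20). Ss18l2 (0.20), Nktr (0.07) and E530011L22Rik (0.22) followed on the other side. By limma 0 passed adjusted, and 0 had an unadjusted p below 0.05. The median of the 40 was 0.01, beside 0.02 over all genes.

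Around Antxr2 0 of 40 flanking genes differed. Anxa3, an annexin gene, had the largest value at 0.52, but its groups overlapped, and Cnot6l had the lowest at -0.43. The nearest were Gk2 (0.02), 4930467D21Rik (0.01) and Paqr3 (0.04) on one side and the transcriptional repressor gene Prdm8 (0.12), A730035I17Rik (-0.003) and the growth factor gene Fgf5 (-0.08) on the other. By limma 0 passed adjusted and 1 had an unadjusted p below 0.05.

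Around Hsd17b11, 1 of 40 flanking genes differed, and it was lower. Arhgap24, which encodes a GTPase-activating protein, read 7.96 ± 0.14 in wild type and 7.41 ± 0.04 in mutant arrays (SD, n = 3 each), a difference of -0.55 (SE 0.10; limma adjusted p = 0.599). The nearest genes were Hsd17b13 (-0.03), Klhl8 (0.16) and Aff1 (-0.06) on one side and Nudt9 (0.06), Sparcl1 (-0.09) and Dspp (0.08) on the other. By limma 0 passed adjusted and 4 had an unadjusted p below 0.05, beside 3.42% of all genes. Over the 160 distinct flanking genes of the 4, 0.625% differed. Without mutant replicate 1 the count was 2 in place of 1, with no share over all genes given for that set of arrays.

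**Figure D3:**
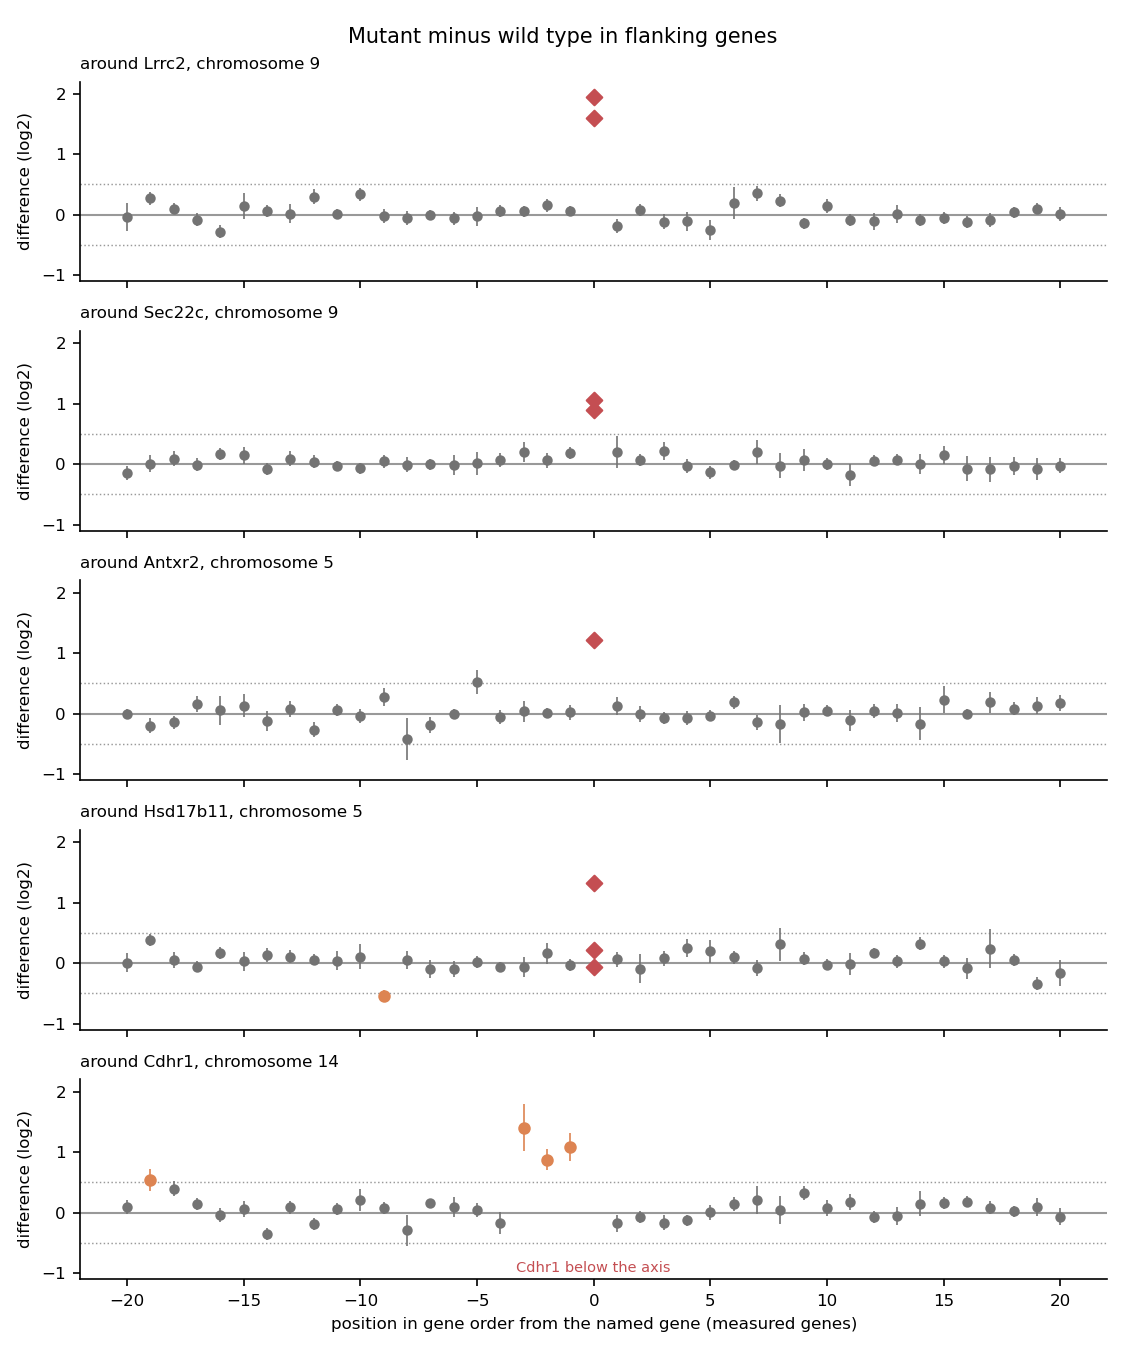
Mutant minus wild type on the log2 scale (vertical axis, bars are the SE) for the 20 measured genes on either side of each named gene, by position in gene order (horizontal axis). Red diamonds are the probe sets of the 4 genes, orange points are genes that differ, and dotted lines mark 0.5 either way. The flanks of Lrrc2, Sec22c and Antxr2 hold no orange point, that of Hsd17b11 holds 1 and that of Cdhr1 holds 4.

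The stretches between the genes of one chromosome were read in the same way. Between Lrrc2 and Sec22c 78 genes were measured, with a median difference of 0.03, and 0 differed. The highest there was Acvr2b, an activin receptor gene, at 0.61 with overlapping groups. Between Antxr2 and Hsd17b11 42 genes were measured, with a median of 0.02, and Arhgap24 was the 1 that differed. By limma 0 passed adjusted in either stretch, and 5 and 2 had an unadjusted p below 0.05, beside 3.42% of all genes. The total of 1 for the 2 stretches became 2 with mutant replicate 1 left out, and 0 or 3 with wild type replicate 2 or 3 left out. No share over all genes is given for these smaller sets of arrays.

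The flanks of Cdhr1, the mutated gene, were read in the same way. Cdhr1 itself was 7.06 lower (SE 0.15). Of its 40 flanking genes 4 differed, all higher: Lrit2 by 1.08 (SE 0.23), Lrit1 by 0.87 (SE 0.17), Rgr by 1.40 (SE 0.39) and Npy4r by 0.53 (SE 0.18), the first 3 of them directly beside it. Rgr is also 1 of the 10 pigment epithelium markers, of which 9 lay higher in the mutant. It read 6.27, 6.17 and 4.79 in wild type and 6.99, 7.49 and 6.96 in mutant arrays, and without the low wild type replicate 3 its difference was 0.92. The same 4 genes differed without that array. None of the 4 passed limma adjusted over all probe sets, while 7 of the 40 had an unadjusted p below 0.05, beside 3.42% of all genes. Whether these flanks differ from those of the 4 genes was not tested. By chromosome, 0.619% of genes differed on chromosome 5 and 0.696% on chromosome 9. Antxr2, Lrrc2 and Sec22c are among those that differed, and Hsd17b11, read at its brightest probe set, is not. These shares put the chromosomes at places 14 and 12 of 20. Chromosome 14 had the highest share at 2.01%, 13 of 647 genes with Cdhr1 among them.

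**Figure D4:**
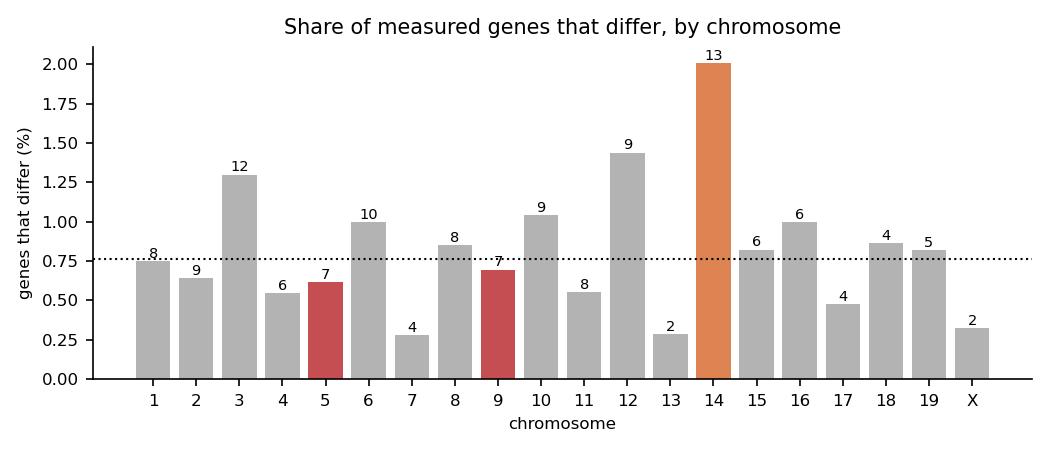
Percentage of measured genes on each chromosome that differ by at least 0.5 on the log2 scale with groups apart (vertical axis), with the number of such genes over each bar and a dotted line at 0.764%, the share over all genes. Chromosomes 5 and 9 (red) lie below the line at 0.619% and 0.696%, and chromosome 14 (orange) is highest at 2.01%.

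Genes related to the 4 by role were then described from lists, each gene at its brightest probe set. Of 15 measured genes of leucine-rich repeat proteins near Lrrc2 in kind, 0 passed limma adjusted over all probe sets. An unadjusted p below 0.05 was found for 3 of the 15, beside 3.42% of all genes. The 15 genes had a median difference of 0.03, beside 0.02 over all genes, and they ran from -0.63 to 0.32. Shoc2, a scaffold of RAS signalling, differed by -0.63 (SE 0.21) with overlapping groups. The channel subunit gene Lrrc8c differed by 0.32 (SE 0.11) and the phosphatase gene Phlpp2 by 0.31 (SE 0.12).

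Of 46 genes of transport between the endoplasmic reticulum and the Golgi, 28 lay higher and 18 lower, 0 passed limma and 0 had an unadjusted p below 0.05. Their median was 0.03. Lman1, a cargo receptor, differed by 0.27 (SE 0.13), the coat subunit gene Copz2 by 0.29 (SE 0.16) and Kdelr3, a retrieval receptor, by 0.24 (SE 0.16).

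Of 30 genes of matrix ligands and partners of Antxr2, 21 lay higher and 9 lower, 0 passed limma and 0 had an unadjusted p below 0.05, at a median of 0.09. Col4a3, a basement membrane collagen gene, differed by -0.31 (SE 0.13), Timp3, an inhibitor of matrix proteases, by 0.43 (SE 0.20) and the laminin gene Lama2 by 0.18 (SE 0.11). The type VI collagen genes Col6a1, Col6a2 and Col6a3, whose protein Antxr2 binds, differed by 0.09 (SE 0.16), -0.14 (SE 0.12) and 0.11 (SE 0.09), and they were singled out for that role.

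Of 39 hydroxysteroid dehydrogenase and lipid droplet genes, 33 lay higher and 6 lower, and 0 passed limma. An unadjusted p below 0.05 was found for 1 of the 39, beside 3.42% of all genes. The median was 0.05, beside 0.02 over all genes, and the range ran from -0.17 to 0.26. The share of all genes that lay higher is not given, so nothing is read from the higher and lower counts of the role lists. Hsd17b2, which inactivates sex steroids, differed by 0.26 (SE 0.11), the acyl-CoA synthetase gene Acsl4 by -0.17 (SE 0.08) and the lipase gene Pnpla2 by 0.20 (SE 0.10). In all 4 lists 0 genes passed with the replicate block as well. Over all genes 0.0165% passed on group alone and 0.044% with the block.

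**Figure D5:**
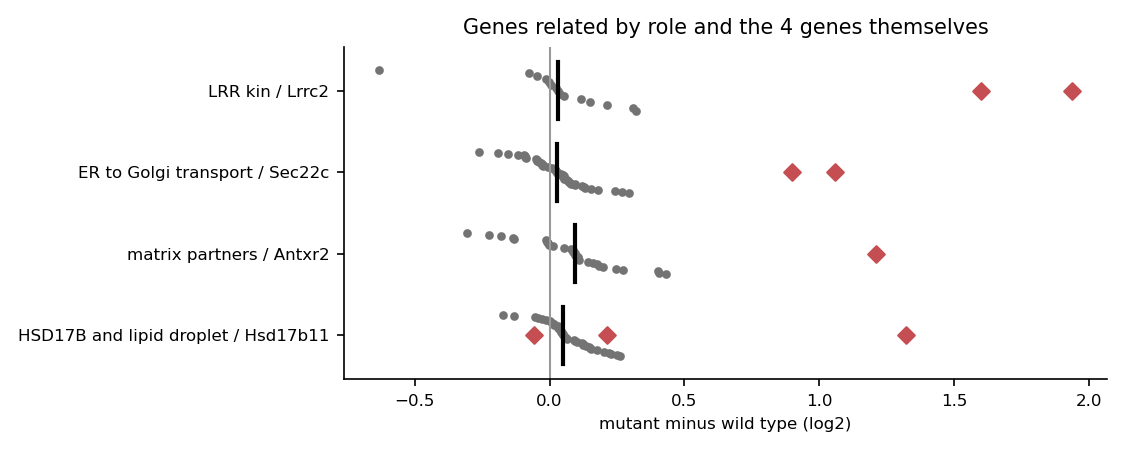
Mutant minus wild type on the log2 scale (horizontal axis) for the genes of 4 lists related by role (grey points, black line at the median) and for the probe sets of the gene each list was built around (red diamonds). The listed genes lie between -0.63 and 0.43. The genes of the diamonds were chosen by this difference and the listed genes were not, so their distance is not a result.

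Markers of cell types were read from lists chosen with earlier results of these data known. The choice of a list can set how many of its genes lay higher. The share of all genes that lay higher is not given, so nothing is read from those counts. The arrays read as retina: 8 measured rod markers averaged 10.99 to 11.21 on the log2 scale in wild type and 10.84 to 11.07 in mutant arrays, with 1 higher and 7 lower in the mutant. The 10 reactive glia markers all lay higher, with list means of 4.93 to 5.51 in wild type and 6.52 to 6.69 in mutant arrays. Of 9 microglia and macrophage markers 9 lay higher (5.01 to 5.11 against 5.37 to 5.46), and of 10 pigment epithelium markers 9 (5.58 to 6.40 against 6.72 to 7.14). By the rule of at least 0.5 with groups apart, 7 of 10 reactive glia, 2 of 9 microglia and 7 of 10 pigment epithelium markers differed. Over all genes 0.764% did. The means of these 3 lists did not overlap between the groups. Nor did those of 6 Müller glia markers (3 higher and 3 lower, 8.95 to 9.21 against 9.22 to 9.25). Of these 6, Vim differed by 0.63 (SE 0.24) and the others by -0.08 to 0.15. The part of these lists in the differences of the 4 genes was not tested. Wild type replicate 3 read low in several lists: it was the lowest of the 6 arrays for 5 of 10 pigment epithelium, 6 of 10 reactive glia and 8 of 9 lens markers. Without it the difference in list means went from 0.83 to 0.56 for pigment epithelium and from 1.46 to 1.33 for reactive glia. It went from 0.35 to 0.34 for microglia and from 0.12 to 0.03 for Müller glia. The list means stayed apart in these 4 lists, which is easier with 1 array fewer. For Müller glia they were barely apart, at 9.21 in the highest wild type and 9.22 in the lowest mutant array. For lens markers the difference in list means went from 0.55 to 0.21. Without wild type replicate 3 the differences of the 6 separated probe sets of the 4 genes ran from 0.78 to 2.05. Those of the overlapping Hsd17b11 probe sets were -0.01 and 0.02. Lens (8 of 9 higher, 9.12 to 10.5 against 9.86 to 10.6), vascular (7 of 9, 5.47 to 5.78 against 5.65 to 5.86) and skeletal muscle markers (6 of 6, 3.96 to 4.14 against 4.07 to 4.27) overlapped between groups. So did cone markers (3 of 7 higher, 8.86 to 9.12 against 8.86 to 9.33). Read at the brightest probe set of each gene, 0 markers passed limma adjusted over all probe sets. With the block 1 did, the reactive glia gene Cebpd (limma adjusted p = 0.0379). On group alone Cebpd was 2.52 higher (SE 0.32, limma adjusted p = 0.217).

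The genes whose 6 array values followed each of the 4 most closely were sought among 12776 probe sets with a range of at least 0.5. These correlations rest on 6 arrays in 2 groups, so they mainly restate that a gene separates the groups. Closest to Lrrc2 were Socs3 (r = 0.994), Prune2 (0.993), Lad1 (0.985) and Mest (0.984), an imprinted gene that differed by 0.47. The Socs3 probe set that followed Lrrc2 differed by 1.55. Socs3, a feedback inhibitor of cytokine signalling, is 1 of the 10 reactive glia markers. At its brightest probe set, the one read for that list, it differed by 0.77. Closest to Sec22c were Spa17 (0.993), the nucleoside diphosphate kinase gene Nme2 (0.993), Wwtr1, which encodes the Hippo pathway co-activator TAZ (0.992), and Lmo1 (0.990). Spa17 also lies on chromosome 9, outside the 40 flanking genes of Sec22c.

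Antxr2 was followed most closely by Ahnak (r = 0.996), Bcl3 (0.994), Sulf1, a sulfatase that edits heparan sulfate (0.993), and the oncostatin M receptor gene Osmr (0.992). Bcl3 and Osmr, like Socs3 beside Lrrc2, are among the 10 reactive glia markers, and they differed by 0.96 and 1.77. The brightest probe set of Hsd17b11 had as its closest genes Cnn3 (0.994), Hyi (0.993), 1700054O19Rik (0.992) and Rcan2 (0.991), with differences of 0.31 or less. Its separated probe set, 1421011_at, which was added to this search after its values were seen, was followed by Sbno2 (0.993), the cone phosphodiesterase gene Pde6c, also a listed cone marker (0.986), Helb (0.982) and Ikbip (0.979). No gene stood among the first 4 of more than 1 of the genes. With so few places among 12776 probe sets, nothing is read from this.

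On deviations from the group means, which remove the group difference, the closest of 10115 probe sets were other genes again. They were Epc1 for Lrrc2 (r = 0.995), Dlgap1 for Sec22c (0.990), Fbxo42 for Antxr2 (0.987) and Slc29a3 for Hsd17b11 (0.998), each at the brightest probe set of the member. These genes differed between the groups by -0.003, -0.07, 0.27 and 0.06. A probe set of Eny2 was among the first 4 for Lrrc2 (0.986), and another was among those for Sec22c (0.975).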

How the data were processed

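The deposited table holds log2 expression values of 45101 probe sets in 6 arrays, which the authors computed by RMA (version not stated), according to the submitters' processing notes. That method subtracts background, brings all arrays to 1 distribution and combines the probes of a set, so array-wide shifts in signal are lost and low values are compressed towards background. After 64 manufacturer controls were left out, 45037 probe sets remained. Array medians lay between 4.74 and 4.79, and the number of arrays limits the precision. Trizol and RNeasy columns were used for total RNA, per the labels' protocols.

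The platform annotation gave 1 symbol to 34945 probe sets, several to 932 and none here to 9160. Each of 18193 genes was taken at its brightest probe set, and 18141 were placed in GRCm38.p6 gene order, which served for neighbours only. The sources used here name no build for the arrays.

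Groups were compared with limma 3.58.1 in R 4.3.3 (lmFit, then eBayes, group as the only term). P-values were adjusted by Benjamini-Hochberg across the 45037 probe sets, with calls at 0.05. Every SE is from that fit unless the block is named. Nothing in the labels says that the 3 pools of a group came from separate litters or days, so p-values measure the spread between these pools. Arrays of the same number deviated together, with correlations of 0.477, 0.469 and 0.563 over probe sets, each above 0.1. A pairing by number thus rests on the data and not on the labels. The fit on group alone leaves this pairing out, and the replicate block takes it in as an alternative. The fit was tested on simulated data with known changes. The named genes were every member probe set, the 3 nearest genes on either side, flanking genes that differed, up to 3 genes per role list by p, and the 4 closest by correlation, with exceptions marked. Relatives of the members and the genes beside Cdhr1 were named for their role or place. The members and lists were chosen with earlier results of these data known. The alternatives were the replicate block, 2 further scalings, a filter on dim probe sets, eBayes with trend, array weights, omitting probe sets of the _s_at and _x_at types, other sizes and widths of neighbourhood, and leaving out each array. The marker lists and the flanks of Cdhr1 were also read without wild type replicate 3, chosen after seeing the data. Figures were drawn with matplotlib 3.10.9.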

Additional observations from a re-analysis of the deposited data

How the results depend on the processing

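The differences of the 8 probe sets moved from the main fit by less than the range of the arrays within either group. This held under each alternative that kept the probe set. They ran from 1.53 to 1.67 (log2) for Lrrc2 1453628_s_at, 1.76 to 2.13 for 1427388_at, 0.97 to 1.16 and 0.77 to 1.01 for Sec22c, 1.06 to 1.31 for Antxr2 and 1.23 to 1.46 for Hsd17b11 1421011_at. The remaining Hsd17b11 probe sets ran from -0.01 to 0.38 and from -0.13 to 0.02. The filter on dim probe sets removed 2 of the 8 and that on cross-hybridising ones 1.

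Calls depended more on the fit. Of all probe sets 5 passed, but 15 with the replicate block, 25 with array weights and 3 without probe sets that can cross-hybridise, and 2 to 9 when 1 array was left out. No call on the 8 probe sets is given, because the same contrast chose their genes. The cause was not tested. Marker genes past the threshold numbered 0, 1 with the block and 2 with array weights, and genes of the role lists 0 throughout.

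The 1 flanking gene that differed became 2 without dim probe sets, 6 at a size of 0.3, 0 at a size of 1, 0 when the probe sets of a gene were averaged and 4 with 40 genes on either side, and was 1 to 2 with 1 array left out. The 1 gene between members became 4 at 0.3, 0 at 1 and 0 when probe sets were averaged, and was 0 to 3 with 1 array left out. No share over all genes is given at these other settings, some of which also change the number of genes read. With 1 array left out, groups are also more easily apart. Nothing about the neighbourhoods is read from these changed counts. Background limits Hsd17b11 1421011_at, and RMA values carry no detection call.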

Other observations

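On the chromosomes of the 4, the genes below differed by the same rule and lay outside the 40 flanking genes of each. They are named after their values were seen. On chromosome 5 Pcolce, an enhancer of procollagen processing, was 1.74 higher (SE 0.29), the EGF family ligand Btc 1.21 higher (SE 0.23), Wdr66 0.91 higher (SE 0.19) and Zfyve28 0.63 higher (SE 0.17), while Dr1, a repressor of transcription, differed by -0.51 (SE 0.17). On chromosome 9 the amino acid transporter gene Slc6a20a was 0.92 higher (SE 0.19), the mRNA decapping enzyme gene Dcps 0.81 higher (SE 0.13), Prtg 0.77 higher (SE 0.13) and Spa17 0.52 higher (SE 0.09), and Glb1l3 differed by -1.38 (SE 0.39).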
